A study of Rattus norvegicus with 2 samples.

Results

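Kinesins are motor proteins that use ATP to move along microtubules or to take them apart. One set builds the mitotic spindle, moves chromosomes and organises the midzone at which a dividing cell is cut apart, and is made mainly by cycling cells. Another set carries vesicles, mitochondria, endosomes and the parts of cilia through the cell. It is best known from the long processes of neurons and glia. In a glioma line the first set is usually tied to the dividing state and the second to cell shape, migration and trafficking. None of these was measured here.

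The genes described here are those whose symbol begins with Kif or Kifc followed by a digit and whose array feature was mapped to exactly 1 gene symbol. There were 37 such genes among 18166 genes measured. They were read from 38 features, since only Kif28p had more than 1, and the feature with the highest mean level stood for the gene. By known role, 12 were placed among the mitotic kinesins and 14 among the transport kinesins. The other 11 form a remaining group, mostly with roles in cilia, centrioles, microtubule disassembly or signalling. RefSeq listed 1 of the 37, Kif4b, as a pseudogene. Of the 43 protein-coding kinesin symbols in RefSeq, 7 were not analysed here because no feature carried them as its only symbol in the annotation used: Kif14, Kif17, Kif19, Kif19b, Kif1b, Kif21a and Kif27l1. Kif1b was named only on features that also carried other symbols.

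The levels came from 2 single colonies of C6, a glioma line from the rat that is used as a model of astrocytic tumours. They are called colony No.8 and colony No.4, and each was hybridised to 1 whole-transcript array. Both were labelled as undifferentiated, were grown with 10% serum, and carry the same protocol text of 20 µM CHIR99021, an inhibitor of the kinase GSK3, with 100 µM forskolin, which raises cyclic AMP, for 35 days. The labels do not say whether the RNA was taken before or after that treatment, and each colony is 1 clone, so a difference below can be one between clones, cultures or hybridisations, which cannot be told apart.

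All levels are on the log2 scale as deposited, and a difference is the level in No.8 minus that in No.4, so that a difference of 1 is 2-fold. With 1 array per colony there was no test and no error for any single value, and the number of arrays limits the precision. A gene was called past the floor when its level reached 4.33, the median of all deposited values, in at least 1 colony. A higher mark of 5.67, the 99th percentile of 1184 olfactory receptor genes that glial cells are not known to use, served as a guide to how far background can reach. Levels of different genes were not set against each other, because each feature has its own probes.

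The labelled cell type was checked against its markers. Of the 7 measured glioma and astrocyte markers 5 were past the floor, among them Vim at 12.60 in No.8 and 12.57 in No.4, Nes at 9.94 in No.8 and 9.54 in No.4 and S100b at 8.46 in No.8 and 8.24 in No.4. Cd44, also past the floor, was lower in No.8, at 8.43 in No.8 and 8.86 in No.4. The astrocyte filament gene Gfap read 5.17 in No.8 and 4.11 in No.4, so it was past the floor only in No.8. Aqp4 and Slc1a3 were below the floor in both. None of the 5 microglia and macrophage markers, the 2 measured endothelial markers or the 4 measured markers of ciliated cells was past the floor in either colony. Of the fibroblast and neuron markers only Pdgfra (9.53 in No.8 and 10.24 in No.4), which glial progenitors also use, and Rbfox3 (4.76 in No.8 and 4.68 in No.4) were.

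Most promoters of the mitotic kinesins share a short element, named CHR below, that the other kinesins mostly lack. Genes that are switched on late in the cell cycle often carry a cell cycle genes homology region, or CHR, at which the DREAM and MuvB complexes bind, close to CCAAT boxes bound by the factor NF-Y. RefSeq promoters of assembly GRCr8, 250 bases before to 50 bases after each annotated start, were available for 28 of the 37 genes and were searched on both strands for the CHR letters TTTGAA or TTTAAA and for CCAAT. No CHR overlapped a CCAAT box in the kinesin promoters, and TTTAAA reads the same on both strands. The windows below show the 120 bases before the start, 5′ to 3′ on the strand of the gene, with both motifs in capitals on whichever strand they lie.

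The first 4 are the mitotic kinesins with the largest differences between the colonies.
Kif2c (chr5:135899213-135899332, minus strand): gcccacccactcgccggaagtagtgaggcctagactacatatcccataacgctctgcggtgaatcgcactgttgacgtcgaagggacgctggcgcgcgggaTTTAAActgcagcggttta
Kifc1 (chr20:5000809-5000928, plus strand): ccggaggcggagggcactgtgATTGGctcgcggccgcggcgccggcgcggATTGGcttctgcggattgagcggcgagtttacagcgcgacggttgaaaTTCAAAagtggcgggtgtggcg
Kif15 (chr8:131479284-131479403, plus strand): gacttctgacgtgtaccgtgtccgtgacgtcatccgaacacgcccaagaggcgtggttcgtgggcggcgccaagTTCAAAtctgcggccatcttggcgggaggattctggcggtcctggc
Kif20a (chr18:26504302-26504421, plus strand): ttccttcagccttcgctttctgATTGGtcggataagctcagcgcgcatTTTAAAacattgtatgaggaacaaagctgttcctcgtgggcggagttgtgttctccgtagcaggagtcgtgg

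The next 3 are mitotic kinesins with small differences, shown because each carries a CHR and a CCAAT box. Kif2c and Kif15 above hold a CHR and no CCAAT box. Kif18a and Kif18b, also with small differences, hold neither and are not shown.
Kif11 (chr1:244536747-244536866, plus strand): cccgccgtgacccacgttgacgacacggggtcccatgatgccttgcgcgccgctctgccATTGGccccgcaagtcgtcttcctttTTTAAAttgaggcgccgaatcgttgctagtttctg
Kif23 (chr8:71320585-71320704, minus strand): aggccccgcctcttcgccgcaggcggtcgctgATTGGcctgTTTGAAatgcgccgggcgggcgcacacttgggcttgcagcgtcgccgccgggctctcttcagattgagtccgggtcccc
Kif22 (chr1:191080879-191080998, minus strand): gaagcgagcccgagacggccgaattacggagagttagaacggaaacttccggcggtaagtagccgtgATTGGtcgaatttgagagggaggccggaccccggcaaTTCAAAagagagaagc

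The last 2 are the transport kinesin and the signalling kinesin with the largest differences of their groups.
Kif5c (chr3:54441187-54441306, plus strand): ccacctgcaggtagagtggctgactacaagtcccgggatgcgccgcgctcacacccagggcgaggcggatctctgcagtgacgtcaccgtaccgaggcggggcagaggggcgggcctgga
Kif26b (chr13:92815307-92815426, plus strand): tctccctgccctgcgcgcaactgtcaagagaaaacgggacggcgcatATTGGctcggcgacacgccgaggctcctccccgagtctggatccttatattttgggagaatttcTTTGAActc

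A CHR lay between 100 bases before and 50 bases after the start in 9 of the 11 mitotic kinesins with a promoter, in 0 of 9 transport kinesins and in 2 of 8 of the rest, Kif26b and Kif28p. Kif2a and Kif24, which a changed role list used below counts as mitotic, held no CHR there. Of all 27457 genes with a promoter 14.4% had one in that window, and of the 9055 that were also past the floor on these arrays 8.48% did. A CHR and a CCAAT box in that same window were found in 6 of the 11 mitotic kinesins, which were Kif11, Kif20a, Kif22, Kif23, Kif4a and Kifc1, against 2.54% of the genes past the floor. Both were also found in 1 of 8 of the remaining group, Kif26b, and in 0 of 9 transport kinesins. CCAAT boxes, with or without a CHR, were less particular to the mitotic class. In that window 6 of 11 mitotic kinesins (54.5%), 2 of 9 transport kinesins (22.2%) and 3 of 8 of the rest (37.5%) had one. Of the genes past the floor 23.6% did. The 2 mitotic kinesins in which no CHR was found were Kif18a and Kif18b. Over the mitotic partner genes introduced further down, 22 of 24 with a promoter held a CHR near the start. In Kif4a the CHR spans the start itself, from base -3 to base 3, and Kif20b has one at -116 and others just after the start. A match of letters is a description and not a measured binding site. Kif2c had 2 annotated starts, and only the one shown held a CHR.

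**Figure D1:**
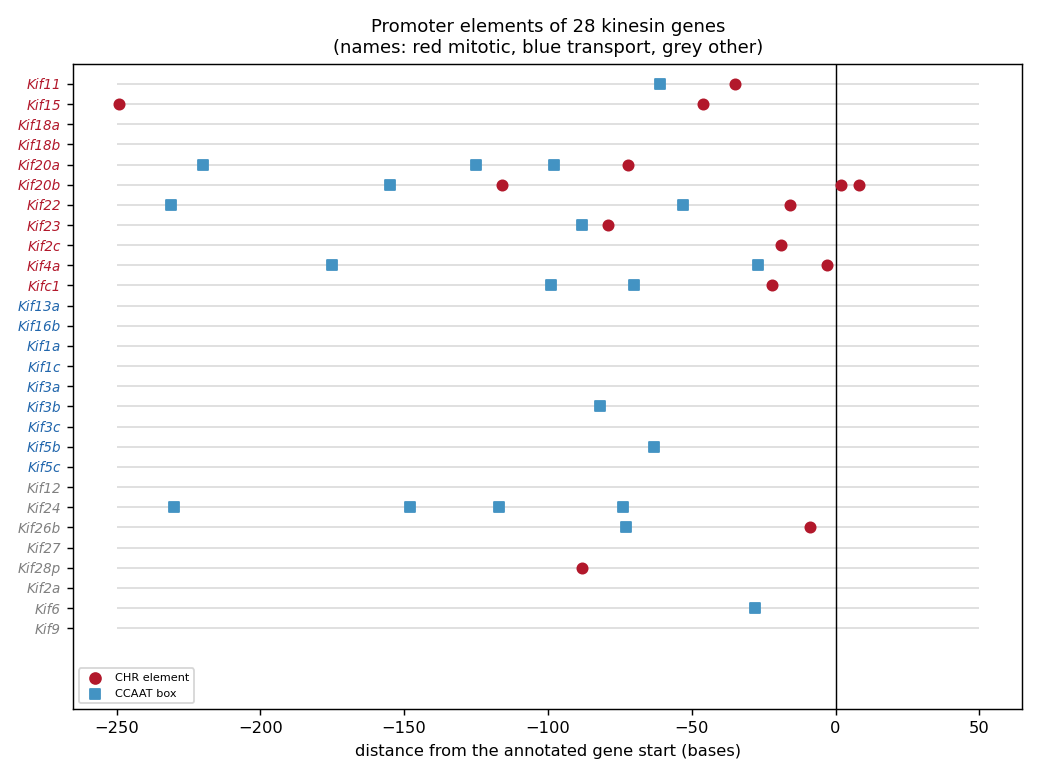
Positions of CHR elements (circles) and CCAAT boxes (squares) in the promoters of 28 kinesin genes, 1 row per gene, with distance from the annotated start in bases on the horizontal axis. Circles lie near the start in 9 of 11 mitotic kinesins (red names) and in 0 of 9 transport kinesins (blue names); the remaining group has grey names.

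Across the family the colonies were close to each other. Of the 37 genes, 29 were past the floor in at least 1 colony and 28 in both. Only Kif26b reached 2-fold, higher in No.8, where 2.91% of the 11069 genes past the floor did so. None was 2-fold higher in No.4, where 2.57% of all genes past the floor were, and 5.47% were 2-fold apart in either direction. At 1.5-fold, 5 kinesins differed, 17.2% of the 29, which is near the 17.8% of all genes past the floor. Kif26b, Kif5c, Kif2c and Kifc1 were at least 1.5-fold higher in No.8, where 9.87% of all genes were, and Kif13b was at least 1.5-fold higher in No.4, where 7.93% were. Just under that size were Kif1c at 0.56, Kif5b at 0.50, Kif15 at 0.50 and Kif20a at 0.49. The median difference was 0.15 over the 29 past the floor, beside 0.04 over all genes past it. Over all 37 members, 8 of which were below the floor in both colonies, it was 0.20, beside 0.03 over all measured genes. Of the 29 past the floor 19 were higher in No.8 (65.5%), 9 were lower and 1 was equal, beside 53.2% of all genes past the floor that were higher. The middle 95% of those genes lay between -1.01 and 1.06, and only Kif26b fell outside it.

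**Figure D2:**
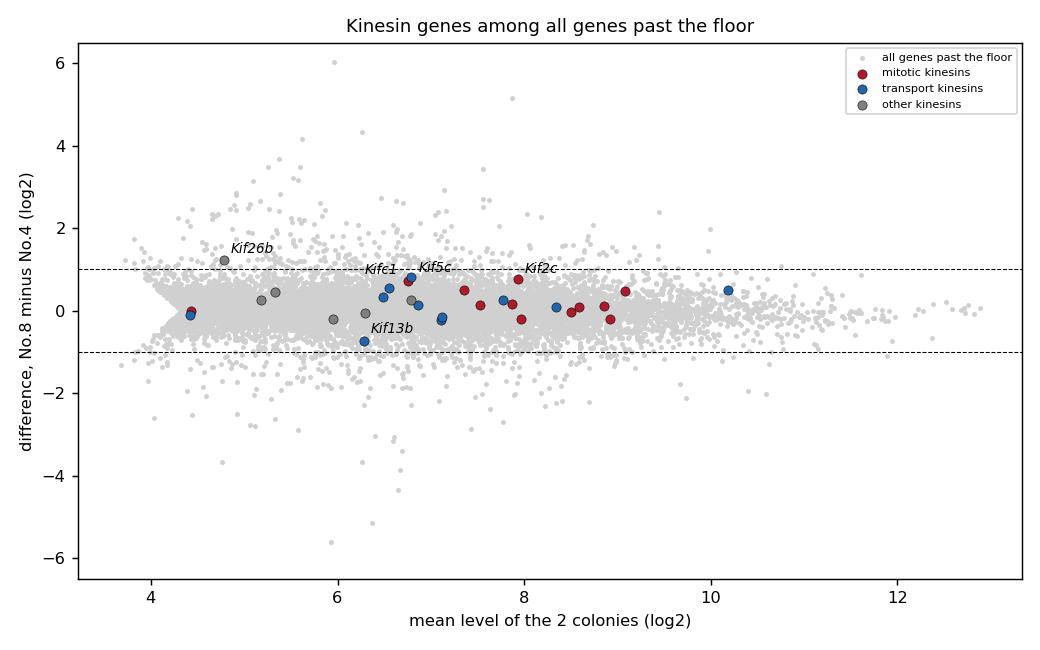
Difference between the colonies (No.8 minus No.4, log2) against mean level (log2) for each gene past the floor (grey) and for the 29 kinesins past it, coloured by class. Dashed lines mark 2-fold; of the kinesins only Kif26b lies beyond them, and the 5 named genes are at least 1.5-fold apart.

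All 12 genes placed among the mitotic kinesins were past the floor in both colonies. Of them 11, all but the pseudogene Kif4b, were also above 5.67 in both. This depends on the role list. A changed list used below also counts Kif2a, Kif2b and Kif24 as mitotic, and Kif2b was below the floor in both colonies. They had a median difference of 0.13, and 8 were higher in No.8, 3 were lower and 1 was equal. None reached 2-fold. In RNA from a whole culture, more dividing cells and more RNA per dividing cell cannot be told apart. The differences were not shared evenly: 4 members lay between 0.49 and 0.78, and the other 8 between -0.21 and 0.16.

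Kif2c, the microtubule depolymerase MCAK that corrects faulty attachments of chromosomes to the spindle, read 8.32 in No.8 and 7.54 in No.4 (1.72-fold higher in No.8). Kifc1, a motor that walks toward microtubule minus ends and gathers spindle poles, read 7.11 in No.8 and 6.40 in No.4 (1.64-fold). Kif15, which helps to keep the spindle bipolar, read 7.61 in No.8 and 7.11 in No.4 (1.42-fold). These 3 genes thus work at the spindle and its chromosomes. Kif20a, which brings the chromosomal passenger complex to the midzone, read 9.32 in No.8 and 8.84 in No.4 (1.40-fold). By absolute difference, 9.96% of all genes past the floor differed more than Kif2c and 24.2% more than Kif20a.

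The 4 other mitotic kinesins that were higher in No.8 differed by 0.16 or less. Kif11, the motor Eg5 that pushes the poles apart and the target of the kinesin inhibitors of the monastrol type, read 8.64 in No.8 and 8.54 in No.4. Kif23, the motor part of centralspindlin, read 8.92 in No.8 and 8.80 in No.4. The chromosome-binding motors Kif4a (7.96 in No.8 and 7.79 in No.4) and Kif22 (7.60 in No.8 and 7.45 in No.4) differed by 0.16 and 0.15. All of these were a little higher in No.8, by less than the upper quartile of all genes past the floor (0.30).

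The 3 mitotic kinesins lower in No.8 were Kif18b, at 8.81 in No.8 and 9.02 in No.4, Kif20b, at 7.86 in No.8 and 8.07 in No.4, and Kif18a, at 8.48 in No.8 and 8.52 in No.4. Kif18a limits the swinging of chromosomes at the spindle equator, Kif18b trims astral microtubules and Kif20b acts at the end of cytokinesis. Kif18a and Kif18b are the only members of kinesin family 8 measured, and they are also the pair without CHR letters near the start. Their differences, -0.039 and -0.21, lay within the middle 50% of all genes past the floor (-0.22 to 0.30). Kif4b had exactly the same value, 4.43, in both colonies, as did 1320 of the 36685 features of the array (3.60%).

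**Figure D3:**
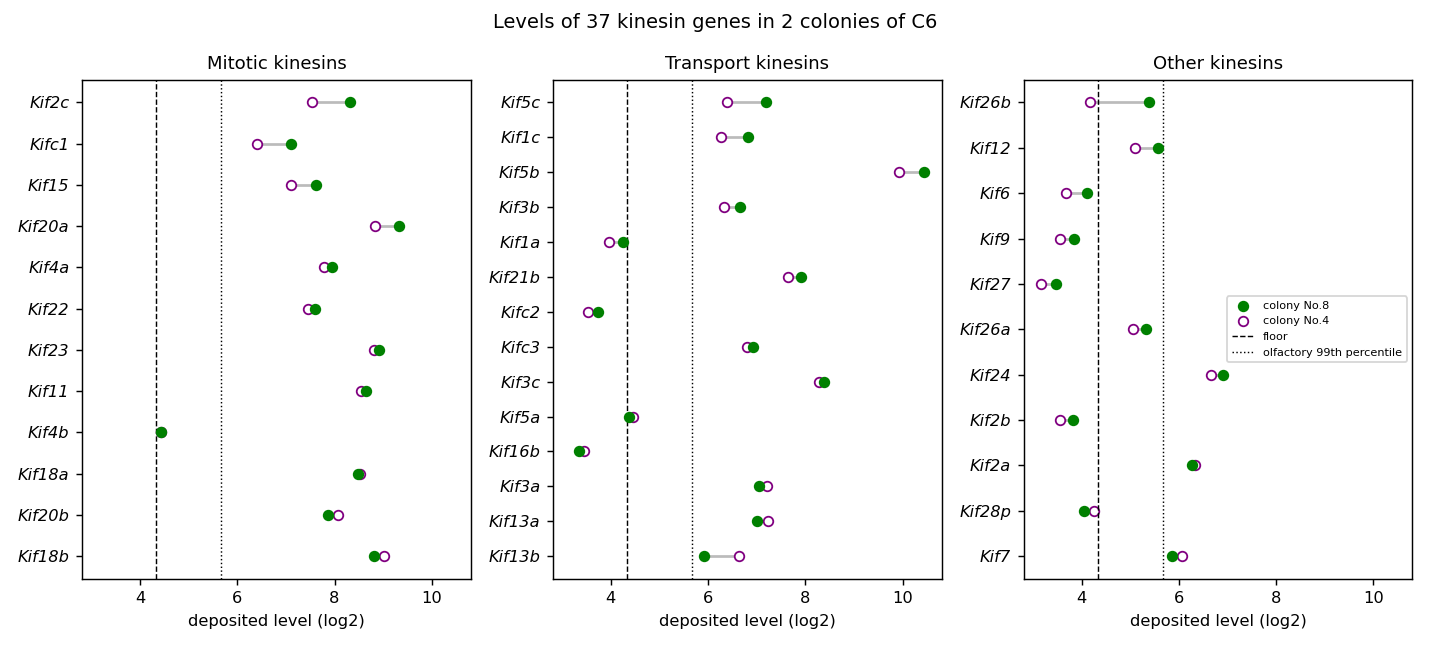
Deposited level (log2) of each of the 37 kinesin genes in colony No.8 (filled) and colony No.4 (open), in panels by class and ordered by difference. The dashed line is the floor (4.33) and the dotted line the 99th percentile of olfactory receptor genes (5.67). All mitotic kinesins lie right of the floor in both colonies, while 3 transport kinesins and 5 of the remaining group lie left of it.

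Among the transport kinesins 11 of 14 were past the floor. The median difference over all 14 was 0.17, and over the 11 it was 0.14, beside 0.13 for the mitotic class, and the mitotic median minus the transport median was -0.0058 past the floor. Of the 11 past the floor, 7 were higher and 4 lower in No.8. At least 1.5-fold apart were 2 of the 11 (18.2%), near the 17.8% of all genes past the floor. The range within the class, from -0.73 to 0.82, was wider than among the mitotic kinesins.

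Family 1 holds the heavy chains of conventional kinesin, which carries vesicles and mitochondria. Kif5b, the heavy chain of most tissues, read 10.44 in No.8 and 9.94 in No.4 (1.42-fold higher in No.8). Kif5c, known best from neurons, read 7.20 in No.8 and 6.38 in No.4 (1.76-fold). Kif5a, the third heavy chain and also mainly neuronal, read 4.37 in No.8 and 4.46 in No.4, at the floor. The pair above 5.67 was thus higher in No.8, and the gene near background differed by -0.09.

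The 4 light chains through which this motor grips cargo were all past the floor. None was 1.5-fold apart, where 17.8% of all genes past the floor were. Klc1 read 8.55 in No.8 and 8.93 in No.4, and Klc3 read 5.33 in No.8 and 5.50 in No.4. Klc2 read 6.37 in No.8 and 6.07 in No.4. Klc4 had the same value, 4.49, in both colonies. Thus 2 light chains were lower in No.8, 1 was higher and 1 was equal.

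Family 2 supplies kinesin II, which moves material into the cilium and along axons. Kif3a read 7.04 in No.8 and 7.21 in No.4, its partner Kif3b 6.66 in No.8 and 6.33 in No.4, and Kif3c, an alternative partner, 8.39 in No.8 and 8.29 in No.4. Kifap3, the accessory subunit that joins them to cargo, read 8.27 in No.8 and 8.46 in No.4. No subunit of this complex was 1.5-fold apart, where 17.8% of all genes past the floor were.

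Family 3 contains fast carriers of vesicles and endosomes. Kif13b, a carrier of membrane proteins that binds the scaffold DLG1, read 5.92 in No.8 and 6.64 in No.4 (1.65-fold higher in No.4). Its close relative Kif13a, an endosome motor, read 7.00 in No.8 and 7.23 in No.4. Kif1c, which carries dense vesicles and integrins, went the other way, at 6.83 in No.8 and 6.27 in No.4 (1.47-fold higher in No.8). Kif1a, the carrier of synaptic vesicle precursors, was below the floor in both colonies, at 4.25 in No.8 and 3.97 in No.4. The endosome motor Kif16b was below it too, at 3.34 in No.8 and 3.44 in No.4. Kif28p, also of family 3, was placed in the remaining group and was below the floor in both colonies. The members of this family therefore differed in both directions.

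Of the other transport kinesins, Kif21b, a motor of neurons that also tempers microtubule growth, read 7.90 in No.8 and 7.65 in No.4, and Kifc3, which moves toward minus ends, read 6.93 in No.8 and 6.80 in No.4. Kifc2 was below the floor in both, at 3.73 in No.8 and 3.53 in No.4.

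In the remaining group Kif26b had the largest difference of the whole family. It is an atypical kinesin that in mouse cells is controlled by Wnt5a and ROR receptor signalling, and it acts in cell adhesion and migration. Its level was 5.39 in No.8, past the floor but under 5.67, and 4.17 in No.4, below the floor. The deposited values were 2.33-fold apart. With the level in No.4 raised to the floor, they were 2.08-fold apart in favour of No.8. Counted from 5.67 in both colonies there was no difference, so the value may lie near background. Its relative Kif26a, at 5.32 in No.8 and 5.05 in No.4, differed by 0.27 and was under 5.67 in both.

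Kif2a, the depolymerase related to Kif2c that acts in neurons and at spindle poles, read 6.27 in No.8 and 6.33 in No.4. Kif24, which keeps the mother centriole from forming a cilium, read 6.91 in No.8 and 6.65 in No.4. Kif7, which organises the tip of the primary cilium for Hedgehog signalling, read 5.85 in No.8 and 6.06 in No.4. These 3 genes were above 5.67 in both colonies. None was 1.5-fold apart, where 17.8% of all genes past the floor were. Kif12 read 5.56 in No.8 and 5.11 in No.4, under 5.67 in both.

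The kinesins linked to motile cilia were below the floor. Kif6 read 4.12 in No.8 and 3.68 in No.4, Kif9 3.85 in No.8 and 3.55 in No.4 and Kif27 3.47 in No.8 and 3.17 in No.4. Kif2b and Kif28p were below it as well, Kif2b with 3.82 in No.8 and 3.56 in No.4 and Kif28p with 4.06 in No.8 and 4.26 in No.4. Each was under the floor in both colonies, as were the 4 measured markers of ciliated cells, so their differences have no interpretable direction. A second, dimmer Kif28p feature read 3.21 in No.8 and 3.17 in No.4.

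Most genes that work with the mitotic kinesins were higher in No.8 by small amounts. Of 28 measured genes of the spindle, kinetochore and midzone, all past the floor, 22 (78.6%) were higher and 6 lower in No.8, beside 53.2% of all genes past the floor that were higher. The median difference was 0.17, beside 0.04 over all genes past the floor. None was 2-fold apart. At least 1.5-fold higher in No.8 were 2 of the 28 (7.14%), a smaller share than the 9.87% of all genes past the floor: Cenpa, the histone of the centromere, at 7.06 in No.8 and 6.35 in No.4, and Ndc80, which joins kinetochores to microtubules, at 8.92 in No.8 and 8.30 in No.4. Next came the checkpoint kinase gene Bub1 (difference 0.54) and Spc25 (0.53), a partner of Ndc80. As with the motors, the size was uneven among members. Earlier results of these data had shown cell cycle genes to be higher in No.8, so this direction is no independent support.

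Direct partners can be set beside their motors. Racgap1, the other subunit of centralspindlin, differed by 0.31 and its motor Kif23 by 0.12. Prc1, which recruits Kif4a to the midzone, differed by 0.02 and Kif4a by 0.16. Tpx2, which binds Kif11 and Kif15 on the spindle, differed by 0.33, and the kinase gene Aurkb, whose product restrains Kif2c, by 0.10. The proliferation marker Mki67 read 10.86 in No.8 and 10.61 in No.4, a difference of 0.25. Kif2c (0.78) and Kifc1 (0.71) differed by about as much as Cenpa (0.71), the largest of the partner list, with no error to set beside any of them.

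**Figure D4:**
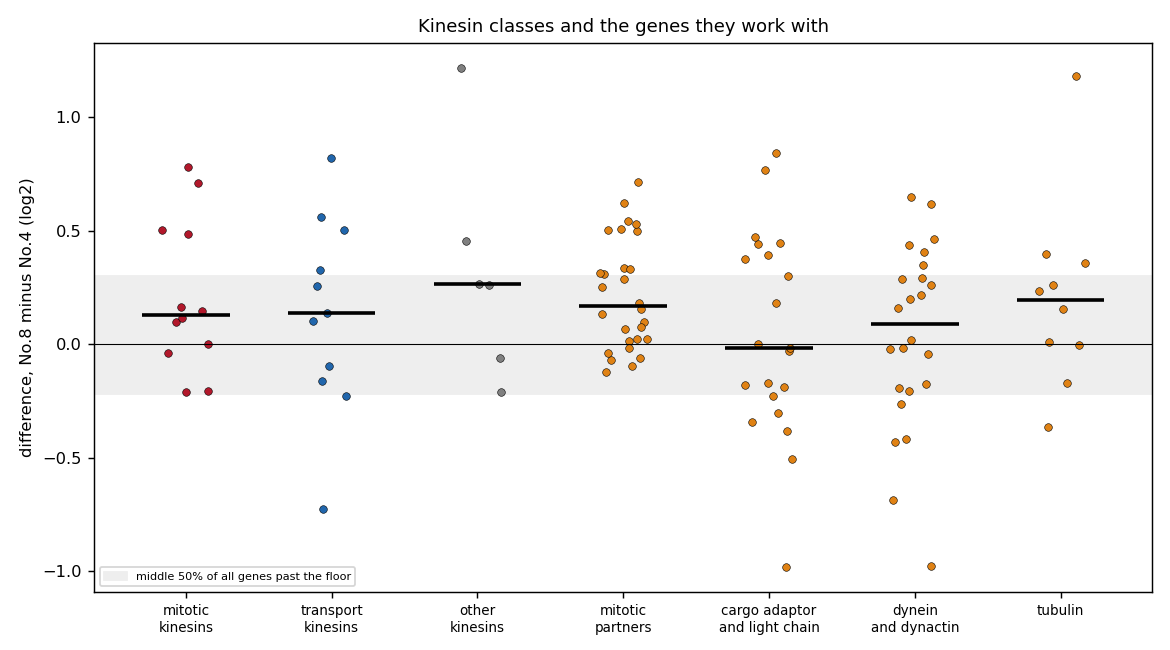
Difference between the colonies (No.8 minus No.4, log2) for each gene past the floor in the 3 kinesin classes and in 4 lists of genes they work with, with a bar at each median. The grey band is the middle 50% of all genes past the floor (-0.22 to 0.30), and the medians of the lists lie between -0.02 and 0.26, all inside it.

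The adaptors and light chains of transport kinesins showed no common direction. Of 22 measured, 21 were past the floor, and the median over all 22 was -0.02. Of the 21, 9 were higher in No.8 (42.9%, beside 53.2% of all genes past the floor), 11 lower and 1 equal. At least 1.5-fold apart were 3 of the 21 (14.3%), beside 17.8% of all genes past the floor. The largest difference was that of Mapk8ip3, which encodes the JNK-interacting adaptor JIP3 that links conventional kinesin to cargo, at 6.80 in No.8 and 7.78 in No.4 (1.97-fold higher in No.4). Kifbp, which blocks the motor domains of several kinesins, read 6.41 in No.8 and 5.57 in No.4 (1.79-fold higher in No.8). Hap1, an adaptor of huntingtin, read 6.96 in No.8 and 6.20 in No.4 (1.70-fold). Plekhm2, which couples lysosomes to kinesin, differed by -0.51. Beside the higher Kif5b and Kif5c in No.8, then, the adaptors differed in both directions.

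For the opposing motor, dynein, and its activator dynactin, 24 of 26 measured genes were past the floor, with a median difference of 0.09. Of these 24, 13 were higher (54.2%) and 11 lower in No.8, near the 53.2% of all genes past the floor that were higher. The heavy chain gene Dync1h1 read 10.15 in No.8 and 9.89 in No.4. The dynein light chain genes Dynlt1 (9.92 in No.8, 10.90 in No.4) and Dynlt3 (7.60 in No.8, 8.28 in No.4) were higher in No.4. The adaptor gene Hook3 (7.66 in No.8, 7.01 in No.4) and the dynactin gene Dctn1 (7.21 in No.8, 6.59 in No.4) were higher in No.8. These 4 genes, each at least 1.5-fold apart, were 16.7% of the 24, near the 17.8% of all genes past the floor.

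Of 13 measured tubulin genes, which encode the tracks themselves, 10 were past the floor and 1 of these was 2-fold apart, where 5.47% of all genes past the floor were. Tubb2a, a beta-tubulin, read 9.71 in No.8 and 8.53 in No.4 (2.27-fold higher in No.8). Tubb6 differed by 0.40 and the gamma-tubulin genes Tubg1 and Tubg2 by 0.36 and -0.37. The median over all 13 was 0.13. Tubulin genes have near-identical copies, so single values within that family are uncertain.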

How the data were processed

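The authors deposited 1 table with a level for each of 36685 array features in 2 colonies. The authors' steps to make these log2 levels before they were deposited are not stated in the labels, and no header or label gives a scale. Base 2 was inferred from their size: they reach 13.3, and a natural log of a 16-bit signal ends at 11.1. Scanner software, background correction and normalization are likewise not given in the sources used here. Per the labels' protocols, total RNA was isolated with Trizol, and biotin was attached to sense cDNA for whole-transcript arrays. Quartiles were 3.16, 4.31 and 6.37 in No.8 and 3.17, 4.34 and 6.37 in No.4, so no scaling was added.

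Features were named through the platform annotation: 18511 had 1 gene symbol, 575 several and 17599 none. All 37 kinesins were found in RefSeq by gene identifier, with the same symbols. The members, role classes and partner lists were chosen with earlier results of these data known. In the partner lists, the 4 genes past the floor with the largest absolute differences were named, with Prc1, Tpx2, Aurkb, Mki67, Klc1, Kifap3 and Dync1h1; Klc2, Klc3, Klc4 and Racgap1 were named after their values were seen. Cenpe, on the same list, is not analysed here. Promoter motifs were chosen after the levels were seen. No test was possible with 1 array per colony. Calculations used Python 3.11.15 with pandas 2.3.3 and numpy 2.4.6. The calling step at 2-fold was run on simulated data with larger planted differences in genes well above the floor. Smaller differences and dim genes were not covered.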

Additional observations from a re-analysis of the deposited data

How the results depend on the processing

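The medians of the mitotic class (0.10 to 0.15 over all alternatives) and of the transport class (0.09 to 0.20) stayed positive. The settings were quantile normalization, centring, loess correction, changed floors, 64 added to the linear signal and changed role lists. Changed feature choices could not alter these medians, because only Kif28p had several features and it is in neither class. Their difference ranged from -0.05 to 0.02, so its sign was not settled. The remaining group had a median of 0.26 past the floor, which was -0.063 with the floor at 5.67 (fewer genes left) and 0.13 with the added 64. Kif26b was the only kinesin at 2-fold, and the count was 0 with the floor at 5.67 and 0 with the added 64. The count at 1.5-fold was 1 with the added 64, which shrinks the differences of dim genes by its construction, against 5 as reported. The tubulin median was 0.29 with the floor at 5.67 and 0.099 with the added 64, against 0.19 past the floor. The dynein and dynactin median was 0.016 with the floor at 5.67, against 0.087. The median of the adaptor list ranged from -0.06 to 0.01. Of 89 alternative values for classes, lists and counts, 83 stayed within 0.1 on the log2 scale or within 1.5 times a count. That tolerance is near the size of several of these medians, so a value within it can have the other sign. Some settings, such as the feature choice, could not change most values, so the tally is no measure of stability. Leaving out Kif4b and raising levels to the floor were chosen after seeing the data. No paired analysis was possible because each colony has 1 array. No probe signal over background was used here, so levels under 5.67 are the least certain.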

Other observations

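Kif26b is linked in mouse cells to signalling by Wnt5a through ROR receptors. That link does not predict the direction of a difference in Kif26b RNA. The levels of those genes were looked up after that of Kif26b had been seen. Ror1 read 7.15 in No.8 and 5.03 in No.4, Ror2 at 4.31 in No.8 and 4.56 in No.4, and Wnt5a at 4.40 in No.8 and 3.24 in No.4. Ror1 and Wnt5a were at least 2-fold higher in No.8, as were 2.91% of all genes past the floor. Of these levels only that of Ror1 in No.8 was above 5.67. All are RNA levels, which do not show protein or signalling, and a link between these genes was not tested.

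Values that were the same to all 5 decimals in both colonies were found for 1320 features, of which Kif4b was the only kinesin, and 250 of them were past the floor. Among genes past the floor 145 had such a value.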
